A study of Rattus norvegicus with 20 samples.

Results

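The neurofilament subunits Nefl, Nefm and Nefh (light, medium and heavy), their partner Ina (α-internexin), peripherin (Prph), vimentin (Vim) and nestin (Nes) were followed in globular bushy cells of the rat at 3 postnatal ages. The members were all probe sets that the platform annotation assigns to exactly 1 gene with 1 of these 7 symbols. That gave 9 probe sets, with 2 each for Nefl and Ina, of 31042 non-control probe sets on the array, 20832 of which have 1 annotated gene. Globular bushy cells lie in the ventral cochlear nucleus, and each sends its axon across the midline to end as a calyx of Held, a giant synapse on principal cells of the medial nucleus of the trapezoid body. All groups were Sprague Dawley rats whose cells were marked by a fluorescent cholera toxin B tracer placed in that nucleus 24 hours before death. From each animal 200 marked cells were cut by laser from 12 µm sections and pooled, and the RNA was amplified over 2 rounds before hybridisation. The groups were P3, just after the calyx forms (6 animals), P8, juvenile and close to the onset of hearing (9 animals), and P21, with the calyx mature (5 animals). Each array is labelled as a biological replicate.

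Intermediate filaments are rope-like polymers of rod-shaped proteins. In neurons Nefl, Nefm, Nefh and Ina copolymerise, fill the axon and set its calibre, which in myelinated fibres governs conduction speed. Vim and Nes make up the filaments of neural progenitors and of many immature cells, and are replaced by neurofilaments as neurons differentiate.

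The signal range of P8 replicates 5 to 9 differed from that of the remaining 15 arrays, and they are shown apart. Their array maximum was 35493 to 55260 intensity units, against 2785 to 5249 on the other 15 arrays, and their median intensity was 58.9 to 67.5, against 23.8 to 32.5. P8 below means replicates 1 to 4, unless the replicates are named. Of 10 markers of bushy cells and fast auditory neurons, 7 were measured. All 7 rose at P21 against P3 (limma adjusted p under 0.05), as did 21.4% of all 11834 genes tested. Their summed intensity was 9044 to 13380 at P21, against 964 to 1385 at P3. A rise with age does not by itself check the labelled cell type. Markers of other cells were present too: 8 measured myelin markers summed to 5312 to 7630 at P21, against 681 to 1581 at P3. The 4 measured inhibitory neuron markers, with Slc6a5 near 0, summed to 292.5 to 784 at P21, against 754 to 1358 at P3.

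At P21 against P3, the heavy subunit Nefh and both Nefl probe sets rose, while Vim and Nes fell. Nefm, Ina and Prph did not pass the test. Thus 5 of 9 member probe sets were called by limma at an adjusted p under 0.05, 3 higher and 2 lower. Of all 21805 probe sets tested, 37% were called, 18.6% higher and 18.4% lower. The 2 age groups did not overlap for 3 member probe sets (Nefh, Vim and Nes), as for 27.3% of all, 13.9% higher and 13.4% lower. The median difference of the members was 0.27 on the log2(intensity + 1) scale and that of all probe sets was 0.028. For P8 against P3, Nefh rose and Vim fell, 2 of 9 member probe sets, where 14.8% of all probe sets were called, 6.98% higher and 7.8% lower. Groups did not overlap there for 3 member probe sets, as for 13.6% of all, 6.73% higher and 6.91% lower. In P21 against P8, only Nes was called, lower, among the 9 member probe sets, where 16% of all were called, 7.98% higher and 8% lower. The groups did not overlap for 2 members, as for 13.5% of all, 7.03% higher and 6.49% lower. No member was called higher there by limma, while 3 were higher and 2 lower at an unadjusted limma p under 0.05. The share of all probe sets at that unadjusted threshold was not counted. All 9 probe sets passed the filter on dim values, log2 4 in at least 5 arrays. Fewer cells that express a gene and less of its RNA per cell cannot be told apart in pooled cells.

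**Figure D1:**
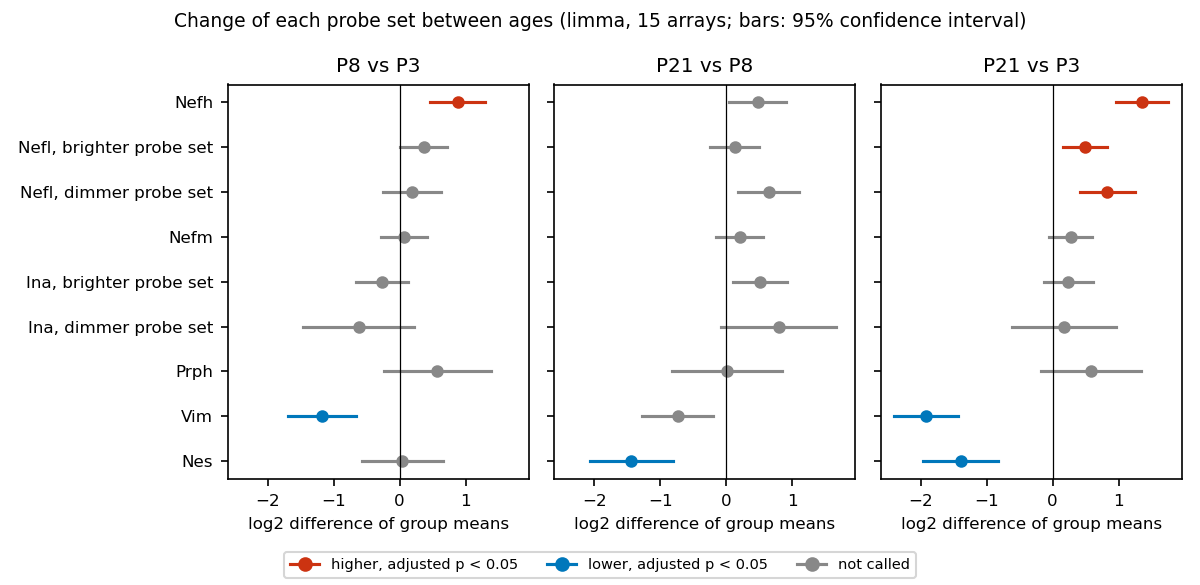
Differences on the log2(intensity + 1) scale, with 95% confidence intervals from limma, for the 9 member probe sets in each pair of ages, the later age minus the earlier. Nefh lies right of 0 and Vim left of 0 in P21 against P3 and in P8 against P3, while Nes differs where P21 is compared.

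Nefh, the subunit with the longest tail, rich in phosphorylated repeats, had the largest difference among Nefh, Nefl, Nefm and Ina in P21 against P3 and in P8 against P3, though not in P21 against P8. Its intensity at P3 was 869 at the lowest, 1094 at the median and 1231 at the highest. At P8 it was 2129, 1560, 1736 and 2488, and at P21 it was 3249, 2951, 2983, 2817 and 1814. Every P8 and every P21 array was above the highest P3 array, while P21 replicate 5 lay among the P8 values. Nefh averaged 11.40 ± 0.33 at P21 and 10.05 ± 0.24 at P3 (log2 scale, SD, n = 5 and 6). The difference was 1.36 ± 0.18 (SE), or 2.56-fold, with a limma adjusted p of 4.44e-05. At P8 against P3 it was 0.88 ± 0.20, with a limma adjusted p of 0.00925, while the difference in P21 against P8, 0.48 ± 0.20, had a limma adjusted p of 0.130. That last difference was 0.62, with a limma adjusted p of 0.0386, without P21 replicate 5. Adding P8 replicates 5 to 9 to the fit cannot change the P21 minus P3 difference of 1.36, as no P8 array enters it. Its SE, which uses a spread shared by all ages, was then 0.46 and its limma adjusted p 0.0610. The P8 minus P3 difference was then 0.14, with a limma adjusted p of 0.806.

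**Figure D2:**
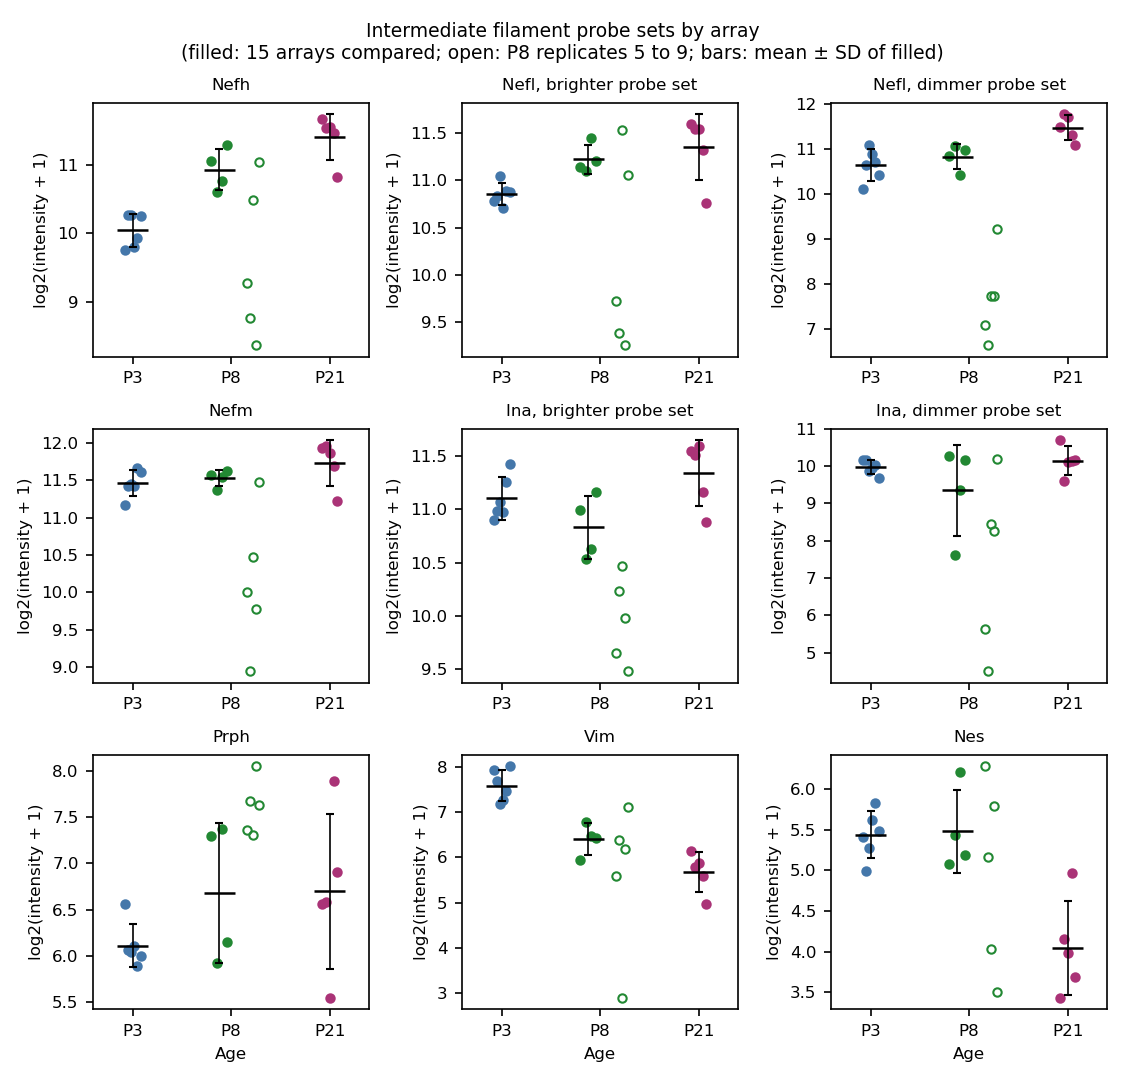
Level of the 9 member probe sets on every array, as log2(intensity + 1), by age, with bars for the mean ± SD of the 15 arrays compared and open circles for P8 replicates 5 to 9. Nefh separates both later ages from P3, Vim is highest at P3, and the P8 replicates 5 to 9 scatter widely.

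Nefl, the core subunit that the other neurofilament proteins need in order to assemble, was read by 2 probe sets. For the brighter, the one with the higher mean over the 15 arrays, the P3 arrays gave 1671 at the lowest, 1855 at the median and 2107 at the highest. The P8 arrays gave 2255, 2183, 2782 and 2359.8, and the P21 arrays gave 3091, 2969, 2979, 2545 and 1731. All 4 P8 arrays exceeded every P3 array, whereas P21 replicate 5 fell inside the P3 range. The P21 minus P3 difference was 0.49 ± 0.16, with a limma adjusted p of 0.0227. Without P21 replicate 1, 2 or 3 it was 0.43, 0.45 and 0.45, and missed the threshold, with limma adjusted p values of 0.0583, 0.0571 and 0.0581. The P8 minus P3 difference was 0.36 ± 0.17 with a limma adjusted p of 0.158.

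The dimmer Nefl probe set ranged from 1107 to 2189.9 at P3, from 1385 to 2156 at P8 and from 2181 to 3533 at P21. P21 did not overlap P8, while its lowest array lay just within the P3 range. In P21 against P3 the difference was 0.83 ± 0.20, or 1.78-fold, with a limma adjusted p of 0.00380. In P21 against P8 it was 0.64 ± 0.22, with a limma adjusted p of 0.0559, and without P21 replicate 5 it was 0.74 with a limma adjusted p of 0.0380. With the array's GAPDH 3′ minus 5′ difference as a covariate, the difference was 0.28 ± 0.23 for the brighter Nefl probe set and 0.87 ± 0.30 for the dimmer one. Neither was then called, with limma adjusted p values of 0.416 and 0.0534. The GAPDH measure, one of RNA integrity, averaged 3.99 ± 0.66 at P21 and 2.91 ± 0.27 at P3 (log2 scale, SD). The same measure of beta-actin went the other way, with 4.32 ± 0.69 at P21 and 4.70 ± 0.30 at P3. The part of RNA integrity in the Nefl result was not tested further. Adding P8 replicates 5 to 9 cannot change the P21 minus P3 differences of 0.49 and 0.83, but it widened their SEs to 0.40 and 0.71. These SEs use a spread shared by all ages. Neither Nefl probe set was then called, with limma adjusted p values of 0.550 and 0.579.

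Nefm, whose tail carries repeats like those of Nefh, was bright at every age. The P3 intensity was 2299 at the lowest, 2786 at the median and 3243 at the highest. It was 3038, 2649, 3001 and 3155 at P8, and 3910.1, 3972, 3736, 3299 and 2382 at P21. Of the P21 arrays 4 were above all P3 arrays and replicate 5 was inside the P3 range. The P21 minus P3 difference was 0.27, with a 95% interval of -0.054 to 0.60 and a limma adjusted p of 0.179. Without P21 replicate 5 it was 0.40, with a limma adjusted p of 0.0331.

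Nefm was among the brightest probe sets of each of the 15 arrays. It ranked between 3 and 6 of 31042 on the P21 arrays, at 84.2 to 90.1% of the array maximum. At P3 it ranked between 9 and 76, at 59.5 to 75.6% of the maximum. P21 replicate 5 had the lowest maximum of the 15 arrays, 2785, and the lowest P21 value of 6 of the 9 member probe sets. Subtracting the mean of each array's 100 brightest probe sets, an alternative chosen after seeing the data, left every member call in P21 against P3 as it was. The part of the array maximum in these values was not tested further.

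**Figure D3:**
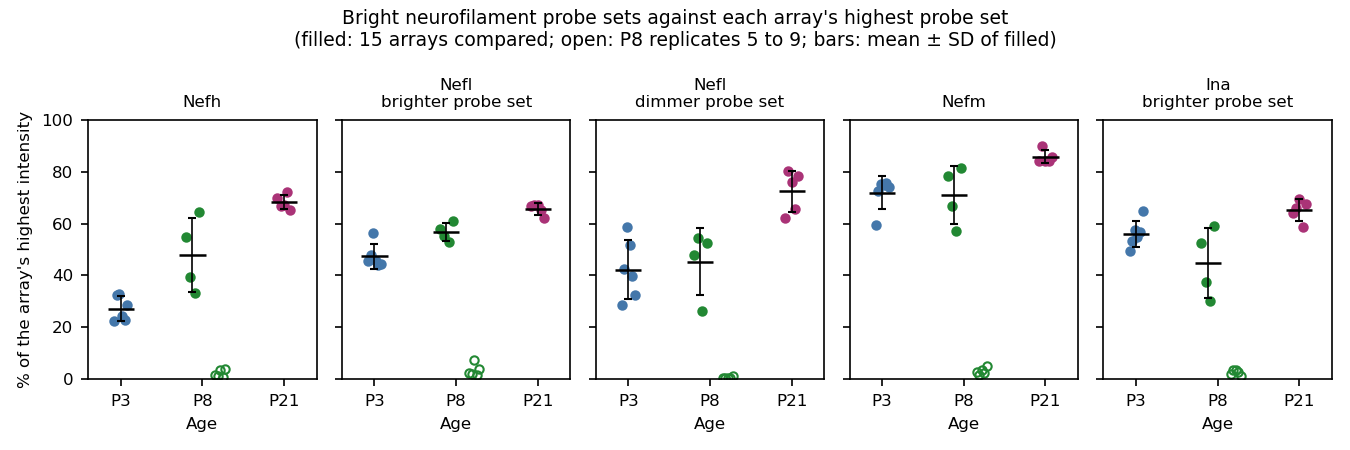
Intensity of the bright neuronal filament probe sets as a percent of the array maximum, by age, with bars for the mean ± SD of the 15 arrays compared and open circles for P8 replicates 5 to 9. Nefm lies at 84.2 to 90.1% on the P21 arrays and at 59.5 to 75.6% on the P3 arrays, and at 1.39 to 5.18% on P8 replicates 5 to 9.

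Ina, which joins neurofilaments early in the development of central neurons, had 2 probe sets and neither was called in any pair of ages. The brighter one ranged from 1912 to 2738 at P3, from 1478 to 2287 at P8 and from 1877 to 3085 at P21. Its P21 minus P3 difference was 0.24 ± 0.17, with a limma adjusted p of 0.311. Its P21 minus P8 difference was 0.51 ± 0.19, with a limma adjusted p of 0.0879, or 0.0378 without P21 replicate 5. The dimmer one varied more, with P8 arrays at 1234, 196, 654 and 1152, and its 95% interval for P21 minus P3 was -0.62 to 0.96.

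Whether the 4 neuronal subunits changed equally was tested on differences taken within each array, with 1 probe set per gene. The tests were two-sided exact permutation tests, 6 pairs at each of 3 contrasts, adjusted over all 18. In P21 against P3, Nefh rose more than Nefl by 0.87, more than Nefm by 1.09 and more than Ina by 1.12 on the log2 scale. For each of these the exact permutation p was 0.00216 and the adjusted p 0.0122, and the groups did not overlap. Within arrays Nefh minus Nefl averaged 0.056 ± 0.062 at P21 and -0.81 ± 0.18 at P3 (SD, n = 5 and 6). The Nefl probe set used was the brighter, which rose less than the dimmer one. With the mean of both Nefl probe sets, Nefh over Nefl was 0.70 and still called. Nefl also exceeded Nefm by 0.22 and Ina by 0.26, with exact permutation adjusted p values of 0.0476 and 0.0429, while Nefm and Ina differed by 0.036, with 0.587. Leaving out 1 array at a time ended the Nefl against Nefm call in 12 of 15 fits and the Nefl against Ina call in 10 of 15, at differences of 0.19 to 0.26 and 0.20 to 0.30 over all 15. Their largest exact permutation adjusted p values were 0.0929 and 0.0786. No P8 array enters these tests, so leaving out or adding P8 arrays moves only the adjustment over the 18 tests. That alone ended the Nefl against Nefm call without P8 replicate 1, 2 or 3. It also ended the Nefl against Ina call without P8 replicate 1 or 2. With all 20 arrays it ended both calls (exact permutation adjusted p 0.0682 and 0.0663). The Nefh calls held in all of these fits, of which only those without a P3 or P21 array retested the differences. The probe sets compared lay at unequal shares of the array maximum at P3. Nefh was at 22.5 to 33.0%, Nefl at 44.2 to 56.5%, Nefm at 59.5 to 75.6% and Ina at 49.4 to 64.7%. At P21 they were at 65.1 to 72.0%, 62.1 to 67.3%, 84.2 to 90.1% and 58.5 to 69.6%, in the same order. The part of the array maximum in the unequal changes was not tested for any pair of ages.

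Nefh also exceeded the other subunits at the shorter interval. For P8 against P3 it rose more than Nefm by 0.81 and more than Ina by 1.15, each with an exact permutation adjusted p of 0.0122. It rose more than Nefl by 0.52, with an exact permutation adjusted p of 0.0381, which was lost in 6 of 15 fits without 1 array (up to 0.0689). Nefl exceeded Ina by 0.64 and Nefm exceeded Ina by 0.34, each with an exact permutation adjusted p of 0.0122. With the mean of all probe sets of a gene, Nefm over Ina was 0.51 and no longer called, with an exact permutation adjusted p of 0.114. With all 20 arrays, Nefh over Nefm was the only one of these 5 pairs still called, and Nefh over Nefl was 0.34 with an exact permutation adjusted p of 0.124.

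In P21 against P8, 2 pairs were called. Nefh exceeded Nefm by 0.27, with an exact permutation adjusted p of 0.0476, lost in 12 of 15 fits without 1 array. In the fits without P3 replicate 2, 4, 5 or 6 this difference was unchanged and only the adjustment moved, as no P3 array enters it. Nefm minus Ina changed by -0.30, with an exact permutation adjusted p of 0.0357, lost in 8 of 15. The extra change of Nefh over Ina was -0.030, with an exact permutation adjusted p of 0.690. These contrasts share arrays, so they are not independent of each other.

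**Figure D4:**
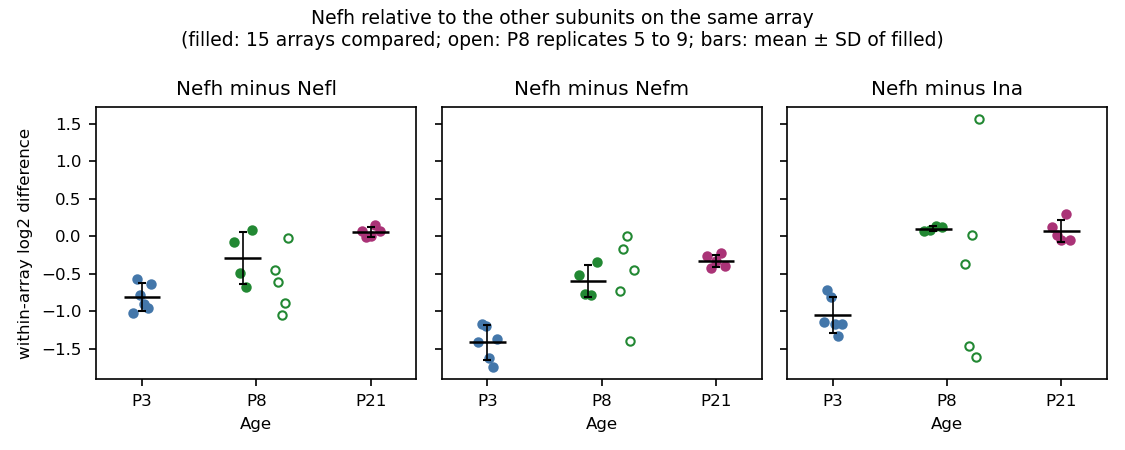
Within-array log2 difference between Nefh and each of Nefl, Nefm and Ina, by age, with bars for the mean ± SD of the 15 arrays compared and open circles for P8 replicates 5 to 9. Nefh minus Nefl averages 0.056 at P21 and -0.81 at P3, and the P21 and P3 arrays do not overlap in any of the 3 panels.

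Prph, the intermediate filament of peripheral neurons and of central neurons with peripheral axons, was not called in any pair of ages on the 15 arrays. At P3 its intensity was 58.3 at the lowest, 65.4 at the median and 93.5 at the highest. At P8 it was 155.8, 59.6, 163.9 and 69.8, and at P21 it was 93.0, 94.5, 45.8, 235.8 and 118.9. Replicates 1 and 3 were high and 2 and 4 low at P8, and P21 replicate 4 was the highest of the 15. The P21 minus P3 difference was 0.58 ± 0.36, with a limma adjusted p of 0.215. The cholinergic and motor neuron markers, of which Slc18a3 was near 0, summed to 41.8, 174.2, 162.9 and 39.4 on the same P8 arrays, high in replicates 2 and 3.

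Vim, the filament protein of radial glia, immature neurons, astrocytes and vessel walls, fell with age. Its P3 intensity was 143.9 at the lowest, 189.9 at the median and 255.6 at the highest. It was 60.3, 108.6, 88.1 and 85.4 at P8, and 69.0, 54.1, 57.7, 47.3 and 30.3 at P21. Neither later age overlapped P3, while P21 and P8 overlapped through P8 replicate 1. Vim averaged 5.67 ± 0.44 at P21 and 7.58 ± 0.34 at P3 (log2 scale, SD, n = 5 and 6). The difference was -1.91 ± 0.23, 3.77-fold lower, with a limma adjusted p of 1.22e-05, and it was called under every alternative tried. The P8 minus P3 difference was -1.18 ± 0.24, with a limma adjusted p of 0.00574. In P21 against P8 it was -0.74 ± 0.25, with a limma adjusted p of 0.0587, and it was -0.89 (0.0328) without P8 replicate 1 and -0.85 (0.0383) without P21 replicate 1.

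Nes, the filament protein of neural stem and progenitor cells, was lower at P21 than at both earlier ages. At P3 it was 30.8 at the lowest, 42.8 at the median and 56.1 at the highest. The P8 arrays gave 32.8, 42.2, 73.2 and 35.6, and the P21 arrays gave 9.8, 16.8, 14.8, 30.2 and 11.9. P8 lay over the P3 range, whereas all P21 arrays were below both, with P21 replicate 4 close beneath them. The difference was -1.39 ± 0.27 in P21 against P3, 2.63-fold lower, with a limma adjusted p of 8.82e-04. It was -1.44 ± 0.30 in P21 against P8, with a limma adjusted p of 0.00437, and -1.14, with a limma adjusted p of 0.0510, when P8 replicates 5 to 9 were added. The P8 minus P3 difference was 0.042, with a 95% interval of -0.57 to 0.65. Nes was dim, and 3 of 5 P21 arrays were below the intensity of the filter, so the size of its fall is uncertain. Over the alternatives its P21 minus P3 difference ran from -2.11 to -0.87. Whether Vim and Nes differed from each other in timing was not tested.

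The promoters of the 2 genes that fell are shown because both carried the decline. They come from RefSeq on GRCr8, which matched 4 of the 7 members (Ina, Prph, Vim and Nes), and are written 5′ to 3′ on the plus strand, 300 bases each. Capitals mark the TATA box letters TATAAA, the CCAAT box letters CCAAT and the GC box letters GGGCGG, read on either strand. Vim lies at chr17:81577011-81577310 and Nes at chr2:175736338-175736637.
Vim: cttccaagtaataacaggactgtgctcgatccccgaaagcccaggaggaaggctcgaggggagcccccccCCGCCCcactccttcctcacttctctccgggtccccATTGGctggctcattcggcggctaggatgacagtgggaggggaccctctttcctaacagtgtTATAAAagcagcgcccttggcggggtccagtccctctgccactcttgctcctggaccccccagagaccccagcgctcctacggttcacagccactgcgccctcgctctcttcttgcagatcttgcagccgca
Nes: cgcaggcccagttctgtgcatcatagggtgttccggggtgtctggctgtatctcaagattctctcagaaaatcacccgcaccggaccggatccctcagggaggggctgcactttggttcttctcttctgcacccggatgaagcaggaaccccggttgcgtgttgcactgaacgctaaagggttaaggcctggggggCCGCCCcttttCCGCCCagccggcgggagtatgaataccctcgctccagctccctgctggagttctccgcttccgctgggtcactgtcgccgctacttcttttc
The Vim window held 1 TATAAA, 1 CCAAT and 1 GGGCGG match, and the Nes window held 2 GGGCGG matches and none of the others. Among 33469 promoters of the same length, 14.2% held TATAAA, 37.5% held CCAAT and 33.1% held GGGCGG.

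Markers of cells known to hold Vim or Nes moved as follows. Of all 11834 genes tested, 21.4% were called higher and 19.5% lower in P21 against P3. Of 9 neural progenitor markers 7 fell and 1 rose in P21 against P3, and they summed to 564 to 824 at P21, against 4059 to 4634 at P3. The largest of these falls was that of Fabp7, a lipid-binding protein of radial glia, at -3.99 ± 0.22 (log2 scale). Of 11 astrocyte markers 3 rose and 2 fell, summing to 7305 to 9006 at P21, against 6142 to 11849 at P3. Of 10 tested endothelial and pericyte markers 2 rose and 1 fell. The 11 measured ones, with Pdgfrb near 0, summed to 738 to 1009 at P21, against 515.0 to 996 at P3. Of 7 fibroblast markers 1 rose and 1 fell, summing to 292 to 358 at P21, against 338 to 453 at P3. Pdgfrb was the only measured marker of these 4 lists near 0 (below log2 4 on all 15 arrays), and the part of these cells in the Vim and Nes results was not tested.

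**Figure D5:**
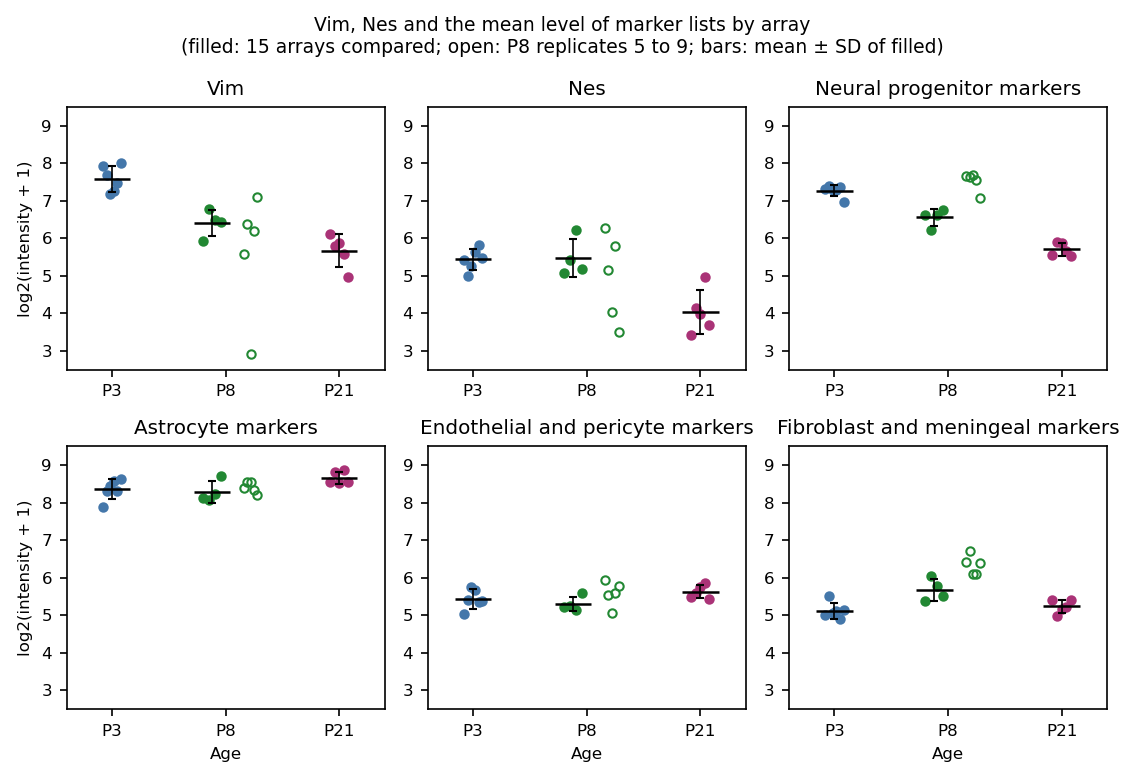
Vim, Nes and the mean log2(intensity + 1) of 4 marker lists on each array, by age, with bars for the mean ± SD of the 15 arrays compared and open circles for P8 replicates 5 to 9. The progenitor mean was 5.70 ± 0.18 at P21 and 7.27 ± 0.15 at P3, while the astrocyte, endothelial and fibroblast means overlapped between P21 and P3.

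On P8 replicates 5 to 9 8 of 9 member probe sets had a larger SD than on P8 replicates 1 to 4 and 8 of 9 had a lower mean, with Prph the exception in both. Nefh was 620, 437, 1428, 331 and 2099 on these arrays. Relative to P8 replicates 1 to 4, the log2 differences were -1.39 for Nefm, -1.34 for Nefh, -3.15 for the dimmer Nefl probe set and -0.87 for the brighter Ina probe set. Only those last 2 of the 9 probe sets did not overlap between the P8 sets, while Prph was 0.92 higher. The shares of all probe sets with such differences were not counted, and the P8 sets differ over the whole array. These counts therefore describe the arrays and are not a result about the members. Mean levels of marker lists differed too: pan-neuronal 8.82 on replicates 5 to 9 and 9.95 on replicates 1 to 4, bushy cell 7.11 and 8.55, microglia 5.61 and 4.10, Schwann cell 6.87 and 5.38, and progenitor 7.52 and 6.56 (log2 scale). Their part in the member values was not tested. The labels give both sets the same age.

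The other genes of the pathway were read from lists, with 1 probe set per gene and 11834 genes tested, of which 40.9% were called in P21 against P3, 21.4% higher and 19.5% lower. The median difference over all genes was 0.038. Of 12 tested other intermediate filament genes 3 rose and 4 fell, with a median of 0.22. The nuclear lamins Lmnb1 (-1.83 ± 0.16, limma adjusted p 8.20e-07) and Lmnb2 (-1.29 ± 0.17) fell, as did the lens filament protein Bfsp1 (-1.24 ± 0.25). The astrocyte filament Gfap differed by 0.56 ± 0.50, with a limma adjusted p of 0.403.

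Of 7 cytolinkers, which tie filaments to other cytoskeletal elements, 2 rose and 1 fell, with a median of 0.050. Dst (1.06 ± 0.20) and Plec (0.95 ± 0.26) rose and Macf1 (-0.91 ± 0.19) fell. Of 14 neurofilament kinases and phosphatases 3 rose and 3 fell, with a median of -0.0093. The protein kinase A subunit Prkaca rose by 1.07 ± 0.13, while the phosphatase subunit Ppp2r2b (-0.93 ± 0.15) and the kinase Mapk8 (-0.75 ± 0.13) fell.

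Of 13 transport motors 5 rose and 2 fell, with a median of 0.36. The kinesin subunits Klc2 (1.75 ± 0.21) and Kif5b (1.13 ± 0.15) and the dynein subunit Dync1li2 (0.60 ± 0.14) rose. Of 8 genes of filament turnover and mRNA binding 5 rose and 2 fell, with a median of 0.61. The chaperone Cryab (1.09 ± 0.21), the ubiquitin ligase Stub1 (0.76 ± 0.16) and the protease Capn2 (0.57 ± 0.14) rose.

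Over the shorter intervals fewer list genes were called. In P8 against P3, 15.6% of all genes were called, 8.48% higher and 7.16% lower, and the lists gave 1 higher and 2 lower of 12 filament genes and 3 higher and 0 lower of 8 turnover genes. Of the others, 0 rose and 2 fell of 13 transport motors, 1 rose and 2 fell of 14 kinases and phosphatases, and 0 of 7 cytolinkers were called. Arhgef28, which binds Nefl mRNA, differed by 1.58 ± 0.39, and the kinase Gsk3b by -1.39 ± 0.36. In P21 against P8, 17.8% of all genes were called, 8.64% higher and 9.16% lower, and 3 of 13 motors rose and 1 fell. There 0 rose and 3 fell of 12 filament genes, 1 rose and 0 fell of 7 cytolinkers, and 1 rose and 1 fell both of 14 kinases and phosphatases and of 8 turnover genes. The keratin Krt18 differed by -2.62 ± 0.46 there.

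Genes with the pattern most like each member were ranked by Pearson r over the 15 arrays among 11833 genes, as a description in which all genes share arrays and ages. Nefl was most like Snap25 (0.961), Nefm like Cox6b1 (0.945) and Nefh like Glrx2 (0.977). Ina was most like Elfn2 (0.918), Prph like Gemin6 (0.823), Vim like Vcam1 (0.950) and Nes like Gmfb (0.935).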

How the data were processed

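Cells marked by retrograde tracer were profiled on a 1-colour expression array at 3 ages, 20 arrays in all. In the deposited table each probe set has a linear intensity for each array. GCRMA is named in the submitters' processing notes without a role or version. On every array the mean intensity without the lowest and highest 2% of probe sets was 100 to 3 digits, so no further normalization was added. All 20 columns matched a sample by name. Of 31099 probe sets 57 are controls. Gene names came from the platform annotation, updated through a RefSeq table of GRCr8.

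Values were analysed as log2(intensity + 1), which understates changes of dim genes, over P3, P8 replicates 1 to 4 and P21. Probe sets above log2 4 in at least 5 of the 15 arrays were tested, 21805 in all. All 3 ages were fitted together with limma (version 3.58.1, R version 4.3.3), using lmFit and then eBayes (Benjamini-Hochberg over all probe sets, calls under 0.05). Lists used the probe set with the highest mean per gene. Unequal change was tested by exact permutation of arrays within Python 3.11.15, with smallest possible p of 0.00216 for P21 against P3. The fit was tested on simulated data. The number of arrays limits the precision. For each list and contrast the genes named are those of up to 3 with the smallest p among calls, and Gfap, Fabp7, the members and the gene most like each member are named besides. The members and lists were chosen with earlier results of these data known. Replicate numbers were not used to pair the arrays in the main fit. Correlations of deviations ran from -0.059 to 0.077 for the same number and from -0.064 to 0.064 for different numbers. Such values cannot exclude a pairing. Alternatives covered filters, scaling, pseudocount, variance model, array weights, RNA integrity, a replicate block, all 20 arrays and leaving out each array.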

Additional observations from a re-analysis of the deposited data

Results flagged for a closer look

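Of 36 groups of 4 to 6 arrays checked for a lone extreme value, 2 had one, where chance gives about 1 in 20. Prph on P3 replicate 1 was the highest of its group, at 93.5 intensity units or 6.56 on the log2 scale, with the next array at 67.6, a gap of 0.687 of the group's range. Nefh on P21 replicate 5 was the lowest of its group, at 1814 units or 10.83 on the log2 scale, with the next array at 2817, a gap of 0.755 of the range. That array also had the lowest maximum of the 15 arrays.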

How the results depend on the processing

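Of 8 called member results, 210 of 221 values under alternatives kept direction and call, 11 lost the call and 0 reversed. The cause of the shifts below was not tested. Added or left-out P8 arrays reach the P21 against P3 results only through the filter, the shared spread and the adjustment. With all 20 arrays, called probe sets became 1242 higher and 1559 lower for P21 against P3 (4047 and 4021 in the 15 arrays) and 4545 higher for P8 against P3 (1522, with 1700 lower), so that the share higher was 66.4% against 47.2%. Member calls became 0 higher for P21 against P3, 2 lower for P8 against P3, and 2 higher and 0 lower for P21 against P8, and called pairs 3, 1 and 0. With 1 probe set per gene the counts were 2672 and 2427, then 947 lower for P8 against P3, then 1149 higher for P21 against P8, where members gave 2 lower. The GAPDH covariate gave 2284 and 2135 and 1 member higher for P21 against P3. The replicate block gave 785 and 828 for P8 against P3, 0 members higher there (Nefh 0.84, limma adjusted p 0.0524) and 0 called pairs in every contrast, since 4 or 5 pairs cannot reach the threshold. Subtracting the brightest 100 gave 713 higher for P8 against P3, 34.8% of its calls, and 2 members lower for P21 against P8. In P21 against P8, array weights gave 1151 higher, fitting only those ages gave 830 and 881 (1740 and 1745 in the fit of all ages), and members higher were 1 with a filter of log2 6, quantile normalization or a pseudocount of 16, and 2 with a variance trend. The log2 6 filter left 1 member lower for P21 against P3, as Nes was no longer tested. Quantile normalization gave 4 called pairs and the mean of probe sets 0 for P21 against P8 (2 otherwise). Leaving out 1 array, called probe sets ran from 3624 to 4464 higher and 3579 to 4442 lower for P21 against P3, 1141 to 1520 and 1151 to 1868 for P8 against P3, and 1327 to 2004 and 1426 to 1775 for P21 against P8. Members higher ran from 2 to 4, 1 to 1 and 0 to 3, members lower from 2 to 2, 1 to 1 and 1 to 2, and called pairs from 3 to 5, 4 to 6 and 0 to 4, in the same contrast order. Differences that reversed were all uncalled: Nefm in P8 against P3 (-0.70 with 20 arrays, -0.046 with quantile normalization, -0.041 without the brightest 100), Nefl in P8 against P3 (-0.21 and -1.56 with 20 arrays) and in P21 against P8 (-0.010 with the GAPDH covariate), and Nes in P8 against P3 (-0.25 with 20 arrays, -0.22 with weights, -0.20 with the covariate, -0.068 without the brightest 100, and -0.20 to 0.18 leaving out 1 array). Prph in P21 against P8 reversed too (-0.50 with 20 arrays, -0.0046 with medians, -0.081 with weights, -0.27 with the covariate, -0.28 to 0.30 leaving out 1 array). Of the pairs, Nefh against Ina was 0.23 with 20 arrays and Nefl against Nefm 0.18 with the mean of probe sets, both in P21 against P8.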
